A study of Homo sapiens with 12 samples.

Results

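Collagens are the triple-helical proteins of the extracellular matrix, and the genes described here encode their chains. They were taken as every gene whose symbol is COL, a number, A and a number. Such genes numbered 32 of the 23375 genes that stand in at least 1 of the 4 comparison tables deposited for this series, and 28 of them stand in all 4. The 32 comprise 10 fibrillar chains, 6 basement membrane chains of type IV and 16 chains of other types. GENCODE release 29 holds 44 genes that fit the rule. The remaining 12, COL2A1, COL6A5, COL6A6, COL9A1, COL9A2, COL10A1, COL19A1, COL20A1, COL22A1, COL23A1, COL25A1 and COL26A1, stand in none of the tables.

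The cells were SUM159, an established line from a primary triple-negative breast tumour. They carried either a hairpin RNA against E4F1 (shE4F1), which encodes a zinc finger transcription factor, or a control hairpin (shCTRL). The 4 groups of 3 libraries each were shE4F1 with gemcitabine, shCTRL with gemcitabine, shE4F1 untreated and shCTRL untreated. Gemcitabine, a cytidine analogue that stalls DNA replication, was given at 140 nM for 24 h. The labels name 1 hairpin against E4F1 and 1 cell line, so the hairpin cannot be told apart from the loss of its target. Whether each library was grown as its own culture is not stated, and a p-value therefore covers the variation among the sequenced libraries alone, which may be technical.

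A collagen molecule is wound from a trio of chains, which are copies of a single chain in some types, such as type III, and products of different genes in others, such as types I, IV, V and VI. Fibrillar collagens build the cable-like fibrils of connective tissue, type IV forms the sheet of basement membranes, and the remaining types decorate fibrils, form networks or filaments, or span the cell membrane. In breast tumours most fibrillar collagen is laid down by fibroblasts, while mesenchymal carcinoma cells can also make matrix of their own.

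Values are the mean normalized count of a table, and log2 fold changes with their standard error (SE), as the authors' DESeq2 gave them. A gene is said to have risen or fallen where the adjusted p of its Wald test was under 0.05. The authors' deposited tables hold no values per library, and depth per library is unknown here. Where the text gives a level for a group, it was derived from the table's mean and fold change; the deposited fold changes of weakly expressed genes are pulled towards 0, so such levels are approximate. For 20 collagens with a mean of at least 50, the derived level of untreated shCTRL cells differed between 3 tables by a median ratio of 1.15, and by at most 1.30 (COL3A1). E4F1 mRNA stood at 0.503 times its shCTRL level in untreated shE4F1 cells (log2 change -0.99, SE 0.26, adjusted p = 0.000778) and at 0.532 times under gemcitabine (-0.91, SE 0.16, adjusted p = 1.47e-07) in the authors' deposited tables.

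SUM159 cells transcribed a broad set of collagens, led by a network-forming chain. Per kilobase of exon, COL8A1, a chain of the type VIII network found around vessels and beneath endothelia, had the highest mean normalized count in the authors' deposited table for untreated cells, at 4430. That was 41.1% of the sum over the 30 collagens listed there. COL12A1, a fibril-associated chain, followed at 1259 per kilobase and COL6A3, of the type VI beaded filament, at 1006. The fibrillar chains COL5A1 and COL5A2, which regulate fibril diameter, stood at 805 and 544. These levels per kilobase come from the authors' deposited table divided by the length of the annotated exons, with no error given. They are means over shE4F1 and shCTRL libraries, as are the levels per kilobase in the next paragraph. COL5A1 and COL4A6 rose with the hairpin and COL5A2 fell, so the order of chains can differ in shCTRL cells alone. By derived levels over 28 collagens, COL8A1 made up 48.5% of the sum in untreated shCTRL and 34.4% in untreated shE4F1 cells.

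The usual major collagen of connective tissue was scarce. COL1A1, the main chain of type I, had 54.8 per kilobase, and COL1A2, its partner chain, 0.226, the lowest of all, with a mean of 2.52 and with its adjusted p missing in the authors' deposited table. Of the 30 collagens, 14 had a mean normalized count of 1000 or more, 6 lay at 50 or more but under 1000, and 10 lay under 50. Among the 14 abundant ones were 2 fibrillar chains, 4 type IV chains and 8 of other types. Type IV was represented mostly by COL4A6 and COL4A5, at 445 and 349 per kilobase, whereas COL4A1 and COL4A2, the chains of the common basement membrane network, stood at 70.6 and 60.2.

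**Figure D1:**
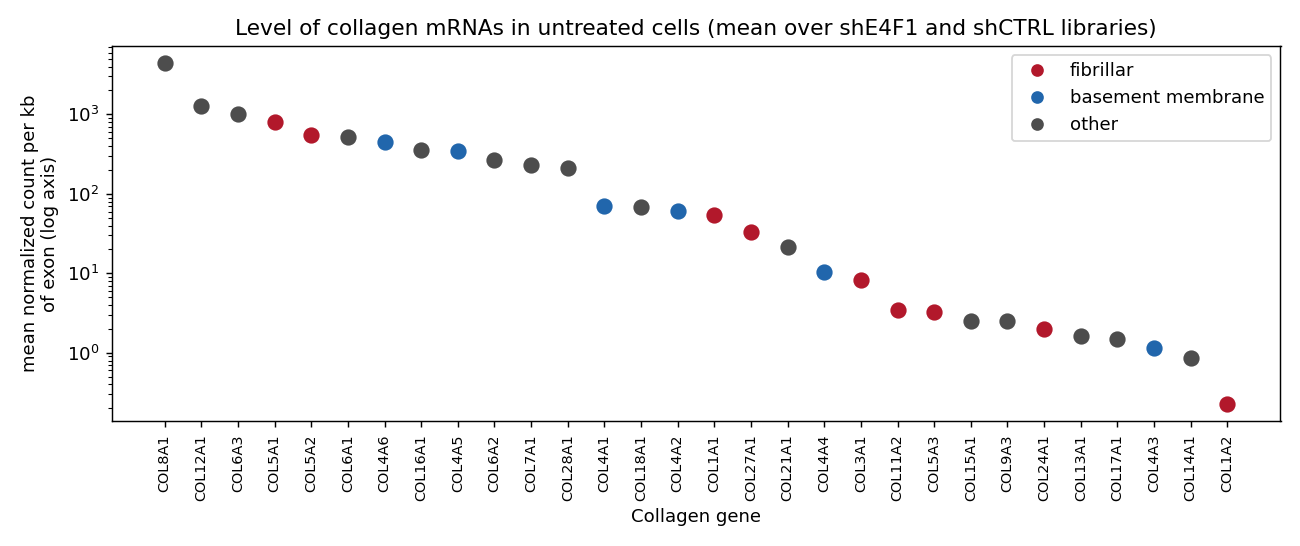
Mean normalized count per kilobase of exon (log axis) of 30 collagen genes in the authors' deposited table for untreated cells, a mean over shE4F1 and shCTRL libraries, coloured by class and sorted by level. COL8A1 leads at 4430 per kilobase and COL1A2 is lowest at 0.226.

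The type IV genes lie in pairs on opposite strands with their starts facing each other: COL4A1 with COL4A2 on chromosome 13, COL4A4 with COL4A3 on chromosome 2, and COL4A6 with COL4A5 on chromosome X. The stretch between the starts of COL4A6 and COL4A5 is shown because the chains of this pair, both abundant here, differed in direction under the hairpin. It is the middle 121 of the 379 bases between the starts in RefSeq (GRCh38.p14, plus strand, chrX:108439588-108439708), and lies in no exon of GENCODE release 29. Capitals mark the letters CCAAT on either strand:
COL4A6 and COL4A5: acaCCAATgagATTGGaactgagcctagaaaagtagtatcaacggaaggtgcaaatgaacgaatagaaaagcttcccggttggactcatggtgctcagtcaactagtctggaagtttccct

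This stretch holds CCAAT at 2 places, does not hold the GC box letters GGGCGG or the TATA box letters TATAAA on either strand, and has 44.6% G and C. Stretches of the same length directly before the start were taken from the RefSeq windows of 27305 genes. Of these genes 24.4% hold CCAAT, 38.1% hold GGGCGG and 7.06% hold TATAAA. The printed stretch lies farther from both starts, so these shares are for an unlike position. Between COL4A1 and COL4A2 the starts are 126 bases apart, with 80.2% G and C, 1 CCAAT and 1 GGGCGG. Of the 418 bases between COL4A4 and COL4A3 82 are covered, with 67.1% G and C and 58 bases in GENCODE exons. None of these letters was found in the 82. RefSeq windows of 300 bases matched 24 of the 32 collagens. CCAAT lies in 9 of these 24 windows and in 39.7% of all genes, GGGCGG in 18 of 24 and 48.3%, and TATAAA in 5 of 24 and 14.0%. TGACGTAA, a site bound by E4F1 in a viral promoter, lies in 0 of the 24 and in 0.513% of all genes.

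The first comparison asks how the E4F1 hairpin changed collagen mRNAs in untreated cells. Of 29 collagens with an adjusted p, 10 rose and 4 fell, against 17.5% and 19.3% of all genes tested, and the median log2 change was 0.47 for the collagens and -0.01 for all genes. Fibrillar chains rose in 4 of 8 cases and fell in 2, type IV chains rose in 2 of 6 and fell in 1, and other types rose in 4 of 15 and fell in 1. Calls were not shared by all chains of a type: COL5A1 rose and COL5A2 fell, and COL6A1 and COL6A3 rose while COL6A2 was not called. The differences between chains were not tested.

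Among the fibrillar chains, COL5A1 was at about 13052 normalized counts in shE4F1 cells and 4954 in shCTRL cells, as derived from the authors' deposited table, which gives a log2 change of 1.40 ± 0.19 (adjusted p = 3.07e-12). Its partner COL5A2 stood at 3605 in shE4F1 cells and 4507 in shCTRL cells, a log2 change of -0.32 ± 0.13 in the authors' deposited table (adjusted p = 0.0448). That small fall was lost when fold changes were centred on the median gene (adjusted p = 0.0986). COL1A1 fell to 279.7 in shE4F1 cells, against 796.3 in shCTRL cells, a log2 change of -1.51 ± 0.21 in the authors' deposited table (adjusted p = 1.31e-11). COL3A1, the chain of the reticular fibrils that accompany type I, rose by 0.98 ± 0.30 (adjusted p = 0.00405) at low levels of 75.7 in shE4F1 cells and 38.3 in shCTRL cells by the authors' deposited table. COL24A1, a fibrillar chain of developing bone in mice, and COL27A1, a chain of cartilage, rose by 1.19 ± 0.44 and 0.57 ± 0.23, with adjusted p of 0.0217 and 0.0344 in the authors' deposited table. Under the stricter Benjamini-Yekutieli adjustment the calls of COL24A1, COL27A1 and COL5A2 were lost (adjusted p of 0.227, 0.359 and 0.468).

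Within type IV, COL4A1 fell and COL4A2 was not called. COL4A1 had 826.6 normalized counts in shE4F1 cells and 1255 in shCTRL cells, a log2 change of -0.60 ± 0.16 in the authors' deposited table (adjusted p = 0.000607). COL4A2 gave 0.09 ± 0.19 (adjusted p = 0.774) in the authors' deposited table. On chromosome X, COL4A6 rose by 0.63 ± 0.13 (adjusted p = 8.77e-06), whereas COL4A5, whose chain assembles with that of COL4A6 in smooth muscle and other basement membranes, gave -0.34 ± 0.15 (adjusted p = 0.0633) in the authors' deposited table, and fell at adjusted p = 0.0480 when only genes with a mean of at least 50 were adjusted for. COL4A4, a chain of the mature kidney glomerular membrane, rose by 1.37 ± 0.26 (adjusted p = 1.41e-06) and its partner COL4A3, at a mean of 10.6, gave 0.46 ± 0.48 in the authors' deposited table.

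Outside these classes the changes were of unequal size. COL21A1, a fibril-associated chain, had the strongest fall of all collagens, to 33.7 in shE4F1 cells against 270.4 in shCTRL cells by the authors' deposited table (log2 change -3.01 ± 0.32, adjusted p = 3.86e-19). COL14A1 and COL16A1, other fibril-associated chains, rose by 2.28 ± 0.53 and 1.02 ± 0.20 in the authors' deposited table, the first of them at very low levels of 12.3 in shE4F1 cells and 2.54 in shCTRL cells. In type VI, which forms filaments around cells, COL6A1 rose by 1.23 ± 0.20 and COL6A3 by 0.81 ± 0.21, while COL6A2 gave 0.29 ± 0.25 in the authors' deposited table. The most abundant collagen, COL8A1, gave -0.36 ± 0.16 (adjusted p = 0.0653) in the authors' deposited table, and fell at adjusted p = 0.0495 when only genes with a mean of at least 50 were adjusted for.

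**Figure D2:**
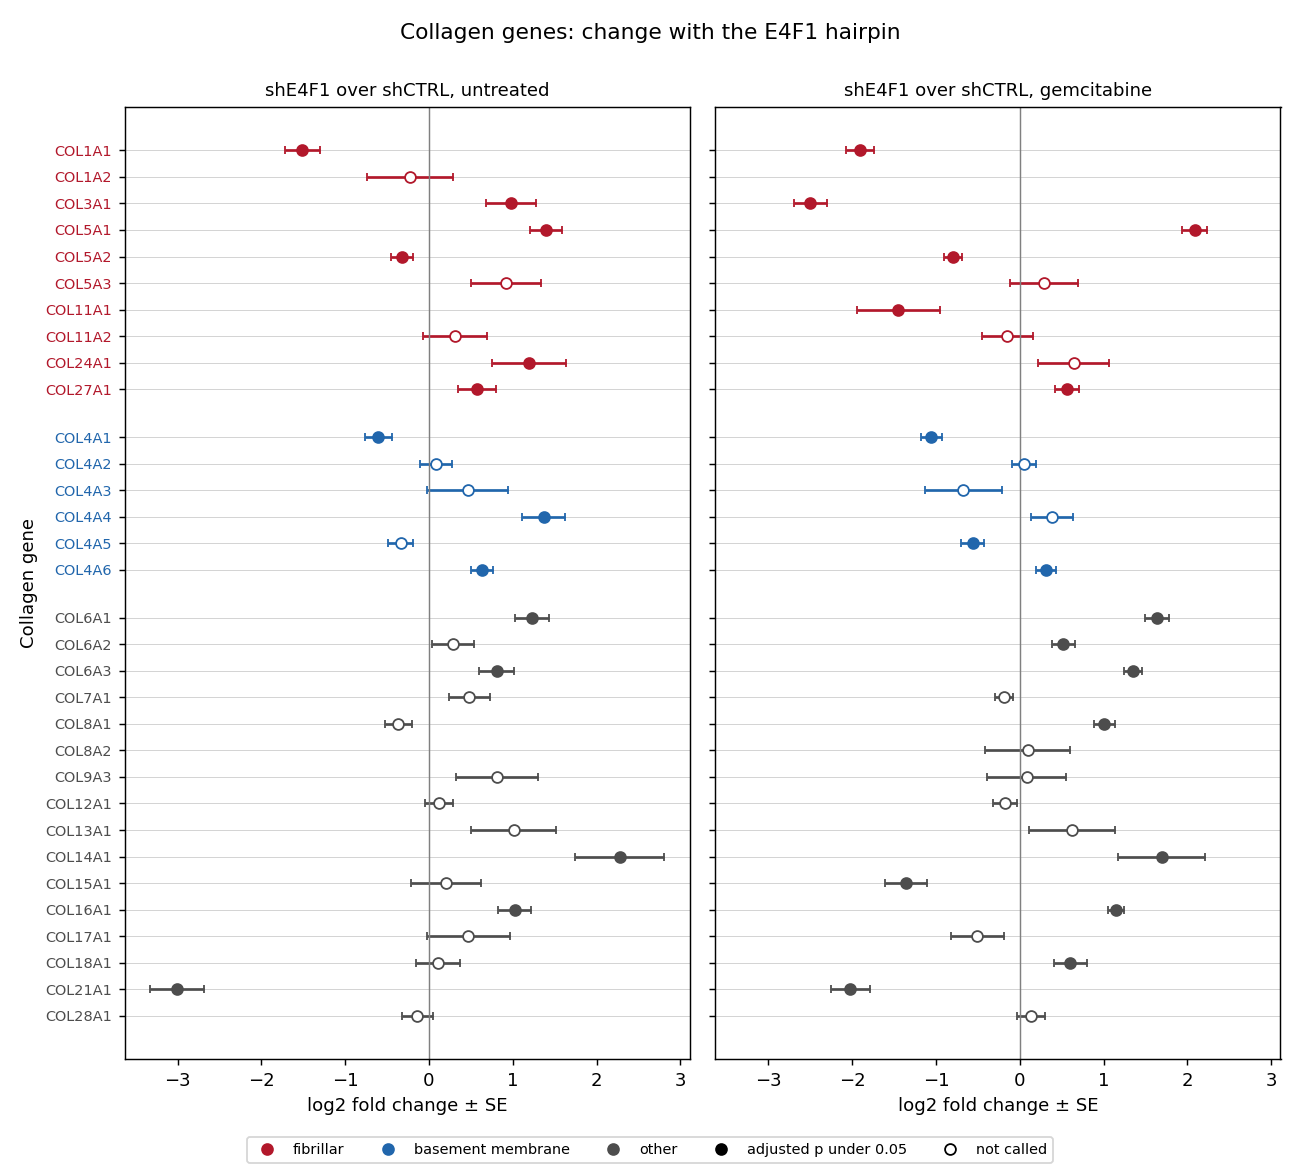
Log2 fold change ± SE of each collagen gene for shE4F1 over shCTRL in untreated cells (left) and under gemcitabine (right), from the authors' deposited tables, grouped by class. Filled points have an adjusted p under 0.05; COL3A1 is at 0.98 on the left and -2.50 on the right.

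The next comparison asks this of drug-treated cells. Of 31 collagens with an adjusted p, 10 rose and 8 fell, against 20.3% and 20.8% of all genes tested, and their median log2 change was 0.09, against 0.00 for all genes. Fibrillar chains rose in 2 of 9 cases and fell in 4, type IV chains rose in 1 of 6 and fell in 2, and other types rose in 7 of 16 and fell in 2.

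The fibrillar chains that fell were COL3A1, COL1A1, COL5A2 and COL11A1. COL3A1 was at 99.6 in shE4F1 cells and 563.7 in shCTRL cells, a log2 change of -2.50 ± 0.19 in the authors' deposited table (adjusted p = 4.42e-36). COL1A1 was at 264.0 in shE4F1 cells and 986.6 in shCTRL cells, a log2 change of -1.90 ± 0.17 (adjusted p = 2.56e-28) in the authors' deposited table. COL11A1, a minor chain of cartilage fibrils, was at a low level, at 5.06 in shE4F1 cells and 13.8 in shCTRL cells by the authors' deposited table (adjusted p = 0.00991). The COL11A1 call was lost when the contrast was taken from the other tables (-1.32, adjusted p = 0.188) and under Benjamini-Yekutieli adjustment (adjusted p = 0.105). In type V, COL5A1 rose by 2.09 ± 0.15 (adjusted p = 1.88e-42) and COL5A2 fell by 0.80 ± 0.11 (adjusted p = 3.67e-12) in the authors' deposited table.

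Type VI rose with the hairpin in all of its 3 listed chains among gemcitabine-treated cells. COL6A1 was at 4354 in shE4F1 cells and 1401 in shCTRL cells, a log2 change of 1.64 ± 0.14 in the authors' deposited table. COL6A3 rose by 1.35 ± 0.11 and COL6A2 by 0.52 ± 0.14 in the authors' deposited table, so the order of the chains was the same as in untreated cells. For COL6A2 the same contrast taken from the other tables gave 0.46 with adjusted p = 0.476. COL8A1 also rose, to 22074 in shE4F1 cells against 10966 in shCTRL cells by the authors' deposited table (log2 change 1.01 ± 0.12, adjusted p = 8.52e-15). COL16A1 rose by 1.15 ± 0.10 and COL14A1 by 1.69 ± 0.52 in the authors' deposited table. COL18A1, the basement membrane proteoglycan from which endostatin is cut, rose by 0.60 ± 0.20 in the authors' deposited table; 16.4% of its exonic bases also belong to SLC19A1 on the opposite strand, and the strand setting of the counting is not given in the sources used here. The COL18A1 call was lost from the other tables (0.54, adjusted p = 0.394) and under Benjamini-Yekutieli adjustment (adjusted p = 0.0868). COL21A1 fell by 2.02 ± 0.24 and COL15A1, the close relative of COL18A1, by 1.36 ± 0.25 in the authors' deposited table.

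In type IV, COL4A1 fell by 1.06 ± 0.13 (adjusted p = 5.58e-15) and COL4A2 gave 0.05 ± 0.14 (adjusted p = 0.836) in the authors' deposited table. COL4A5 fell by 0.56 ± 0.14 (adjusted p = 0.000152) and COL4A6 rose by 0.31 ± 0.12 (adjusted p = 0.0224) in the authors' deposited table. The genes on either side of the X-linked stretch printed above thus moved in opposite directions with the hairpin among gemcitabine-treated cells. From the other tables these were -0.58 and 0.29, with adjusted p of 0.0526 and 0.420, and the COL4A6 call was also lost under Benjamini-Yekutieli adjustment (adjusted p = 0.238). The difference between the chains of a pair was not tested.

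**Figure D3:**
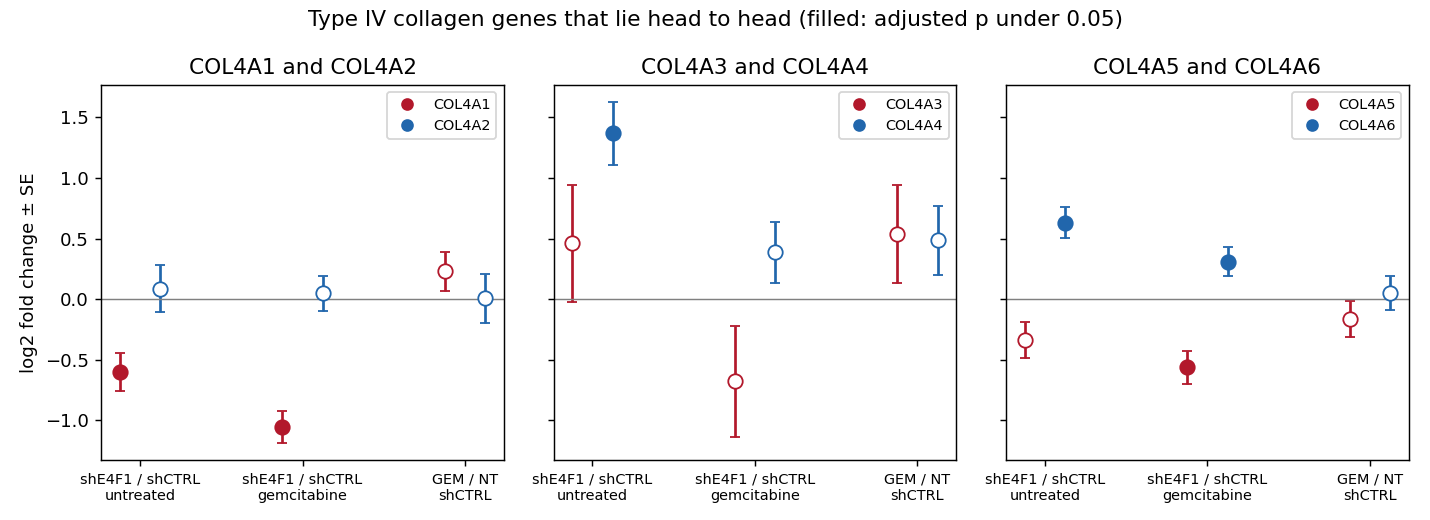
Log2 fold change ± SE of the type IV collagen genes, drawn in the pairs that lie head to head, for the hairpin in untreated cells, the hairpin under gemcitabine, and gemcitabine in shCTRL cells (GEM, gemcitabine; NT, untreated), from the authors' deposited tables. COL4A1 lies at -0.60 and -1.06 for the hairpin and COL4A2 at 0.09 and 0.05.

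The knockdown comparisons in untreated and in gemcitabine-treated cells share no library. Of 29 collagens with an adjusted p in both, 11 were called in the same direction in both (37.9%), against 5329 of 19389 genes overall (27.5%). COL5A1, COL27A1, COL4A6, COL6A1, COL6A3, COL14A1 and COL16A1 rose in both, 7 of the 10 that rose in each. For COL27A1 the call under gemcitabine was lost from the other tables (0.52, adjusted p = 0.322), as was its untreated call under Benjamini-Yekutieli adjustment. COL1A1, COL5A2, COL4A1 and COL21A1 fell in both, all 4 that fell in untreated cells and 4 of the 8 that fell under gemcitabine. COL3A1 was called in opposite directions, 1 of 29 collagens (3.45%) and 97 genes overall (0.5%).

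The third comparison asks what gemcitabine did to collagens in shCTRL cells. Of 29 with an adjusted p, 6 rose and 5 fell, against 14.5% and 13.5% of all genes tested, with a median log2 change of 0.05, against -0.02 for all genes. Fibrillar chains rose in 3 of 9 cases and fell in 1, other types rose in 3 of 14 and fell in 4, and 0 of 6 type IV chains were called by DESeq2, also 0 at an unadjusted p under 0.05. The SEs of the type IV chains reached 0.41 (COL4A3) in the authors' deposited table.

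COL3A1 showed the largest change of any collagen in the 4 deposited tables. It was at 569.4 in gemcitabine-treated and 49.8 in untreated shCTRL cells, 11.4 times higher, a log2 change of 3.52 ± 0.22 in the authors' deposited table (adjusted p = 2.96e-55). COL15A1 was at 104.5 with gemcitabine and 21.5 without (2.28 ± 0.29), and COL17A1, a transmembrane chain of epithelial hemidesmosomes, at 44.8 and 12.6 (1.84 ± 0.36), by the authors' deposited table. COL11A1 rose by 1.32 ± 0.43 and COL11A2 by 1.13 ± 0.33, both at group levels under 60 in the authors' deposited table. COL7A1, which forms the anchoring fibrils of skin, rose by 0.70 ± 0.24 in the authors' deposited table. All of these except COL7A1 stood under 50 normalized counts in untreated shCTRL cells by the derived levels, and 3 of the 6 rises were called when only genes with a mean of at least 50 were tested.

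The collagens that fell had derived levels of 632.3 (COL18A1) or more in untreated shCTRL cells. COL8A1 was at 11548 in gemcitabine-treated and 53661 in untreated shCTRL cells, a log2 change of -2.22 ± 0.17 in the authors' deposited table (adjusted p = 1.52e-37). COL5A1 fell by 1.19 ± 0.22 and COL6A3 by 0.85 ± 0.20 in the authors' deposited table. COL18A1 fell by 0.78 ± 0.27 (adjusted p = 0.0155) and COL28A1, a chain related to type VI, by 0.49 ± 0.17 (adjusted p = 0.0161) in the authors' deposited table. Over the 28 collagens in all tables, the derived levels per kilobase summed to 6937 with gemcitabine and 11760 without, a ratio of 0.590, and to 5709 and 6056, a ratio of 0.943, without COL8A1. COL8A1 alone made up 17.7% of the derived sum with gemcitabine and 48.5% without. Under Benjamini-Yekutieli adjustment the rises of COL11A1 and COL7A1 (adjusted p of 0.120 and 0.179) and the falls of COL18A1 and COL28A1 (0.162 and 0.169) were lost. The median genomic span was 46.6 kb for the 6 genes that rose, 160.8 kb for the 5 that fell and 157.7 kb for the 18 not called. With the hairpin in untreated cells these medians were 159.35, 175.85 and 121.7 kb, and with it under gemcitabine 132.8, 175.85 and 121.7 kb. Spans are given as a description with no test.

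In shE4F1 cells the effect of gemcitabine was derived from a pair of tables that both contain the untreated shCTRL libraries, so its SEs are too large. By the normal test on the derived changes 0 of 29 collagens rose and 1 fell (1 higher and 2 lower at an unadjusted p under 0.05), against 0.925% and 0.185% of all genes tested, with a median log2 change of -0.29, against -0.02 for all genes. The 1 that fell was COL8A1, with a derived change of -0.90 ± 0.22 (adjusted p = 0.00796). This call was lost when the same change was taken from the other tables (-0.84, adjusted p = 0.141). For COL3A1 the derived change was 0.04 ± 0.43, for COL15A1 0.76 ± 0.56, for COL17A1 0.92 ± 0.66 and for COL5A1 -0.58 ± 0.27, none of them called. In simulated data this test found 38.5% of log2 changes of 1, and 61.6% among genes with a mean of at least 50. The simulated noise left out the libraries that the tables share. A collagen not called here may therefore still have changed.

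**Figure D4:**
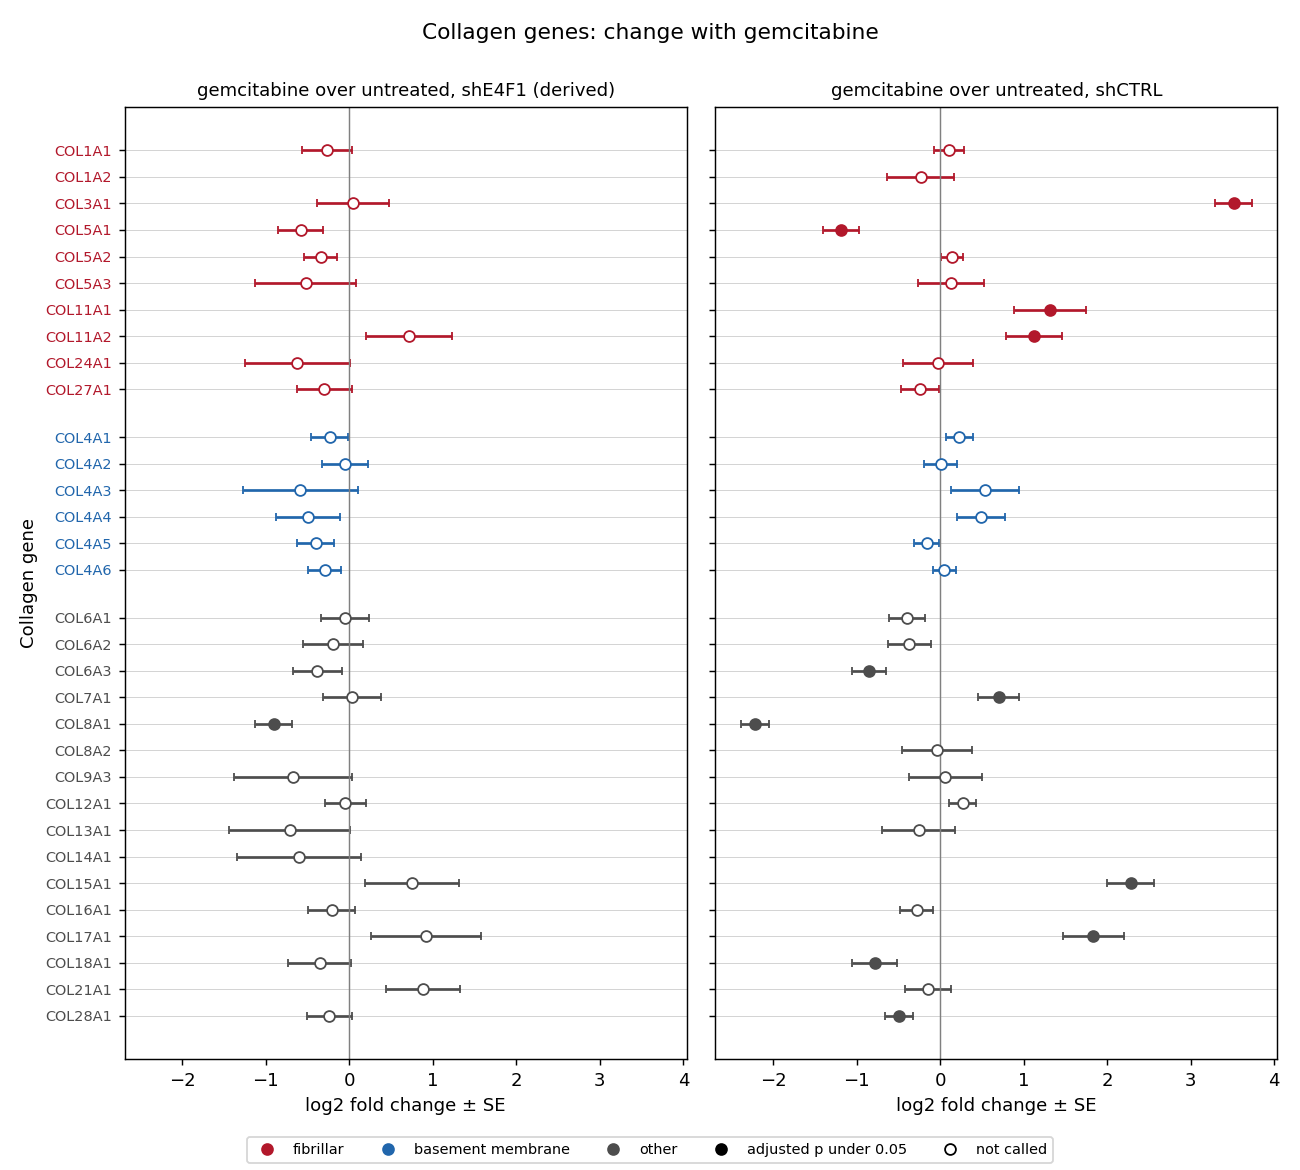
Log2 fold change ± SE of each collagen gene for gemcitabine over untreated in shE4F1 cells (left, derived from a pair of the authors' deposited tables) and in shCTRL cells (right, from the authors' deposited table). COL3A1 lies at 0.04 on the left and 3.52 on the right, and COL8A1 at -0.90 and -2.22.

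Whether the hairpin acted differently with and without the drug was tested by subtracting the untreated knockdown effect from that seen with the drug. Both effects were taken as deposited, so the pull towards 0 of weakly expressed genes can differ between them. COL15A1, for example, had a mean of 16.9 in untreated cells and 73.0 with the drug. Of 29 collagens 1 had a positive and 2 a negative difference, against 2.81% and 2.63% of all genes tested; the median difference was -0.39 for collagens and 0.04 for all genes. COL3A1 differed by -3.48 ± 0.36 (adjusted p = 4.00e-19): its derived level was highest in gemcitabine-treated shCTRL cells, at 563.7, and lay at 99.6 in gemcitabine-treated shE4F1 cells. COL8A1 differed by 1.37 ± 0.21 (adjusted p = 1.37e-08), with derived levels of 22074 in shE4F1 and 10966 in shCTRL cells under gemcitabine, and of 36438 in shE4F1 and 46926 in shCTRL cells untreated. COL15A1 differed by -1.56 ± 0.49 (adjusted p = 0.0317), a call that was lost when the difference was taken from the other tables (adjusted p = 0.435) and under Benjamini-Yekutieli adjustment (adjusted p = 0.334). PTPRC, a leukocyte marker, was lower in shE4F1 than in shCTRL cells under gemcitabine (-3.00 ± 0.27) and untreated (-2.21 ± 0.40), and at 2.21 times its untreated level with gemcitabine in shCTRL cells, all called in the authors' deposited tables. Its derived difference was -0.79 ± 0.49 (adjusted p = 0.443), and its part in the COL3A1 result was not tested. For COL5A1 the difference was 0.69 ± 0.24 (adjusted p = 0.0641), and for COL5A2 -0.48 ± 0.17 (adjusted p = 0.0811). Of the 6 type IV chains 0 were called in this test (0 higher and 2 lower at an unadjusted p under 0.05), and the largest difference there was -1.14 ± 0.67 for COL4A3.

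**Figure D5:**
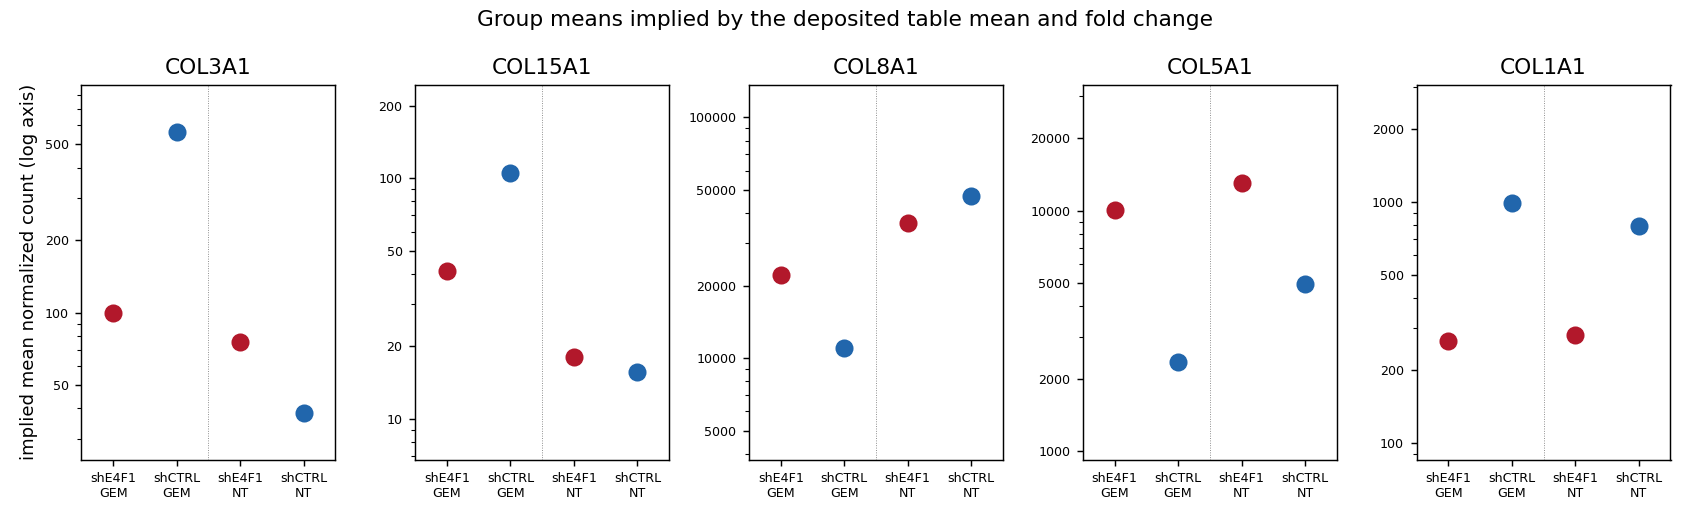
Group means of 5 collagen genes as derived from the mean and fold change of the authors' deposited knockdown tables (mean normalized count, log axes of equal span; GEM, gemcitabine; NT, untreated), with shE4F1 in red and shCTRL in blue. The gemcitabine and untreated pairs come from tables normalized separately; COL3A1 stands at 563.7 in shCTRL cells with gemcitabine and under 100 in the other groups.

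The last deposited table sets gemcitabine-treated shE4F1 cells against untreated shCTRL cells, so it holds both changes at once. Of 29 collagens with an adjusted p, 9 rose and 6 fell, against 15.8% and 16.3% of all genes tested, with a median log2 change of 0.30, against -0.01 for all genes. COL3A1 rose by 1.03 ± 0.31 and COL8A1 fell by 1.27 ± 0.15 in the authors' deposited table. COL5A1 rose by 0.82 ± 0.20, COL6A1 by 1.18 ± 0.21 and COL16A1 by 0.81 ± 0.20, while COL5A2 fell by 0.67 ± 0.15, COL4A1 by 0.83 ± 0.16, COL4A5 by 0.74 ± 0.17 and COL1A1 by 1.78 ± 0.22, all in the authors' deposited table. The other rises were COL4A4 at 0.87, COL11A2 at 1.03, COL14A1 at 1.67, COL15A1 at 0.96 and COL17A1 at 1.39, and the other fall was COL21A1 at -2.12, in the authors' deposited table. The rises of COL4A4, COL11A2, COL14A1, COL15A1 and COL17A1 were lost under Benjamini-Yekutieli adjustment (adjusted p of 0.101, 0.142, 0.0725, 0.349 and 0.0658). This table shares libraries with the untreated knockdown table, the gemcitabine knockdown table and the table of gemcitabine in shCTRL cells.

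The proteins that fold, process, bind and read collagens were followed in 5 lists, chosen with earlier results of these data known. Their counts stand against the shares of all genes tested, which were 17.5% risen and 19.3% fallen with the hairpin untreated, 20.3% and 20.8% with it under gemcitabine, 14.5% and 13.5% with gemcitabine in shCTRL cells, and 15.8% and 16.3% with both changes. In the endoplasmic reticulum, chains are hydroxylated, glycosylated and chaperoned before they leave the cell. Of 18 genes for these steps, none rose and 8 fell in untreated shE4F1 cells (17.5% and 19.3% of all genes), with a median log2 change of -0.24; under gemcitabine 8 rose and 7 fell (20.3% and 20.8%). SERPINH1, the collagen chaperone HSP47, fell by 1.82 ± 0.13 in untreated cells and by 0.98 ± 0.10 under gemcitabine in the authors' deposited tables, and its derived difference of 0.84 ± 0.16 was called (adjusted p = 2.76e-05). COLGALT1, which adds galactose to hydroxylysine, fell by 1.69 ± 0.13 and 1.31 ± 0.10, and P4HB, a subunit of prolyl hydroxylase, by 1.28 ± 0.14 and 1.00 ± 0.11 in the authors' deposited tables. Gemcitabine in shCTRL cells lowered 11 of the 18 and raised 1, P4HA3, at 1.09 ± 0.16 in the authors' deposited table. With both changes 1 rose and 7 fell.

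Enzymes that trim and cross-link secreted collagen moved in both directions. Of 12 listed genes 5 rose and 1 fell in untreated shE4F1 cells (17.5% and 19.3% of all genes), and 6 rose and 2 fell under gemcitabine (20.3% and 20.8%); gemcitabine in shCTRL cells raised 1 and lowered 4, and both changes together raised 6 and lowered 4. LOX, the lysyl oxidase that starts cross-links, rose by 1.62 ± 0.22 and 2.02 ± 0.17, and ADAMTS2, the protease that removes the amino propeptide, by 1.24 ± 0.23 and 2.02 ± 0.18 in the authors' deposited tables. LOXL3, a related oxidase, fell by 1.70 ± 0.23 and 1.36 ± 0.21 in the authors' deposited tables. The levels of LOX and ADAMTS2 fell with gemcitabine in shCTRL cells, by 0.74 ± 0.23 and 1.22 ± 0.25 in the authors' deposited table.

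Matrix proteins that bind collagen rose with the hairpin in 7 of 9 cases in untreated cells (17.5% of all genes) and 5 of 9 under gemcitabine (20.3%), and none fell (19.3% and 20.8%). FN1, fibronectin, had a mean of 175896 in the untreated table and stood at 4.29 times its shCTRL level there and at 3.44 times under gemcitabine in the authors' deposited tables, both called as rises. TGFBI rose by 1.24 ± 0.15 and 1.68 ± 0.12, and DCN, the proteoglycan decorin, by 1.17 ± 0.20 and 0.58 ± 0.17 in the authors' deposited tables. Gemcitabine in shCTRL cells raised 1 and lowered 2 of the 9, among them THBS1, thrombospondin, at -1.35 ± 0.18 in the authors' deposited table; with both changes 4 of 8 rose and 1 fell. Collagen receptors and turnover enzymes rose in 7 of 12 cases and fell in none in untreated shE4F1 cells (17.5% and 19.3% of all genes), and rose in 8 and fell in 1 under gemcitabine (20.3% and 20.8%). They rose in 1 and fell in 4 with gemcitabine in shCTRL cells, and rose in 6 and fell in 1 with both. ITGA11, the integrin chain that binds fibrillar collagen, rose by 2.07 ± 0.27 and 2.15 ± 0.26, MRC2, which takes up cleaved collagen, by 1.00 ± 0.18 and 1.55 ± 0.13, and MMP2, a gelatinase, by 0.96 ± 0.17 and 1.42 ± 0.15 in the authors' deposited tables.

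Enzymes that supply proline and glycine, the residues that collagen uses most, fell in 6 of 10 cases and rose in none in untreated shE4F1 cells (19.3% and 17.5% of all genes). PSPH, the last step of serine synthesis, fell by 2.05 ± 0.15 and PYCR1, which makes proline, by 2.03 ± 0.21 in the authors' deposited table. Under gemcitabine 1 rose and 5 fell, gemcitabine in shCTRL cells lowered 4 and raised none, and both changes raised 1 and lowered 4. In this list 4 derived differences between the knockdown effects were positive and called (2.81% of all genes), led by PSAT1 at 1.78 ± 0.24 (adjusted p = 9.24e-11).

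Markers of the labelled line were checked. All 6 mesenchymal markers had a mean of at least 50, led by VIM at 66531 in the authors' deposited table for untreated cells. With the hairpin in untreated cells AXL fell by 2.08 ± 0.14 and VIM by 0.40 ± 0.14, SNAI2 rose by 1.00 ± 0.16 and CD44 by 0.79 ± 0.15, and ZEB1 and CDH2 were not called in the authors' deposited table. Under gemcitabine 2 of the 6 rose and 2 fell with the hairpin, and gemcitabine in shCTRL cells raised 1 and lowered 3. Of 9 luminal markers PGR, EPCAM and KRT19 are not listed there, and ESR1 and CDH1 had means of 9.21 and 5.34. Of the 6 listed, 3 had an untreated mean of at least 50, and derived sums were 5507 (shE4F1) and 5423 (shCTRL). The 6 are ESR1, CDH1, GATA3, FOXA1, KRT8 and KRT18. Most of these sums is from the keratins KRT8 and KRT18, so luminal markers were not absent as a group. GATA3, at an untreated mean of 401.9, fell with the hairpin by 0.57 ± 0.19 untreated and 0.60 ± 0.15 with the drug. With the hairpin 0 of the 6 rose untreated and 1 rose with the drug. Gemcitabine raised FOXA1 by 0.99 ± 0.27 where the control hairpin was carried. Some genes that also mark other cell types moved with the hairpin. Of 6 endothelial markers 3 are listed, while CDH5, VWF and CLDN5 are not. KDR and PECAM1 rose, and the derived summed level was 3278 in shE4F1 and 700 in shCTRL untreated cells. Most of that sum is KDR, at a mean of 1801 against 183.4 for PECAM1. Of 6 fibroblast and pericyte markers 5 are listed, ACTA2 and PDGFRA rose and PDGFRB fell, with a derived summed level of 3200 in shE4F1 and 1584 in shCTRL untreated cells. Of 5 blood markers PTPRC and CD14 are listed, with a derived summed level of 19.9 in shE4F1 and 75.2 in shCTRL untreated cells. Under gemcitabine the derived sums in shE4F1 and shCTRL cells were 2373 and 416.7 for the endothelial, 2972 and 1685 for the fibroblast and pericyte, and 34.4 and 212.8 for the blood markers. In shCTRL cells the blood markers summed to 212.9 with gemcitabine and 97.8 without, by derived levels. Most of this is PTPRC, at a mean of 144.0 in this comparison and the only blood marker called in it. The part of these in the collagen values was not tested, and in bulk libraries a change in the share of some cells and a change per cell cannot be told apart.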

How the data were processed

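RNA of 12 SUM159 libraries was sequenced as 50-base single-end reads from a stranded kit, per the labels. Per the submitters' processing notes, the authors ran DESeq2 1.14.1 in R 3.4.0; reads were checked with FastQC, and TopHat2 2.1.1, Bowtie2 2.2.9, HTSeq 0.9.0 and the build GRCh38.p7 are named beside bcl2fastq. Not given in the sources used here are the annotation release, strand setting, filters and design formula. The 4 deposited tables give, per the file headers, the mean normalized count (a signal scaled by the authors' size factors), the log2 fold change and its SE, the Wald score, and a p-value, raw and adjusted by Benjamini-Hochberg. Each deposited table was normalized by itself. An adjusted p that was missing stayed missing. A count table with 12 columns whose names match no label was not used, so there are no values per library. Median SEs over all genes were 0.242 (hairpin, untreated), 0.206 (hairpin, gemcitabine), 0.239 (gemcitabine, shCTRL) and 0.249 (both changes).

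For gemcitabine in shE4F1 cells the effect is the table of both changes minus the untreated knockdown table; the interaction is the gemcitabine knockdown table minus the untreated one. Both got a two-sided normal test with summed variances, Benjamini-Hochberg adjusted over 21080 and 20923 genes. The calculation was tested on simulated data with 200 changed genes. At a log2 change of 1 it found 38.5% of them for gemcitabine in shE4F1 cells and 40.0% for the interaction. At a log2 change of 2 it found 74.0% and 79.5%. Group levels were derived from a table's mean and fold change, taking equal group sizes. Lengths, positions and overlaps are from GENCODE release 29, sequences from RefSeq GRCh38.p14. Every collagen called in any of the 6 comparisons is named, and from each related list up to 4 called genes per comparison with a mean of at least 50 and the largest change could be named. The members and lists were chosen with earlier results of these data known. Alternatives were another centring, other filters on low values, a change of at least 1, Benjamini-Yekutieli adjustment, effects from the other tables and another basement membrane class. Python 3.11.15, numpy 2.4.6, pandas 2.3.3, scipy 1.17.1 and matplotlib 3.10.9 were used.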

Additional observations from a re-analysis of the deposited data

Results flagged for a closer look

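In 3 collagens the effect of the E4F1 hairpin differed between gemcitabine-treated and untreated cells by a test of the difference itself. For COL3A1 the difference was -3.48, with an effect of -2.50 under gemcitabine and 0.98 in untreated cells. For COL8A1 it was 1.37, with effects of 1.01 and -0.36. For COL15A1 it was -1.56, with effects of -1.36 and 0.20. The COL15A1 call was lost from the other tables (adjusted p = 0.435) and under Benjamini-Yekutieli adjustment (adjusted p = 0.334), and COL15A1 was not among the genes tested when a mean of at least 50 was required.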

How the results depend on the processing

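No collagen that was called changed direction under the alternatives that were run. Changes of sign in uncalled collagens, which can occur near 0, were not counted. Counts are given here only where they moved by a large factor, so a count left out can also have changed. Untreated calls of COL24A1, COL27A1 and COL5A2, for example, were lost under Benjamini-Yekutieli adjustment. With a change of at least 1 (log2) required, 6 collagens rose and 2 fell in untreated cells with the hairpin, 6 rose under gemcitabine, 2 fell with gemcitabine in shCTRL cells, 5 rose and 3 fell with both changes, and 0 fell with gemcitabine in shE4F1 cells. Among genes with a mean of at least 50 only, 3 rose with gemcitabine in shCTRL cells, 5 rose with both changes, and the interaction had 2 positive calls (COL5A1 added, adjusted p = 0.0438) and 1 negative. Under Benjamini-Yekutieli adjustment 3 fell with gemcitabine in shCTRL cells, 4 rose with both changes, 0 fell with gemcitabine in shE4F1 cells and 1 interaction was negative. Taken from the other tables, whose SEs are larger by construction, 5 rose with the hairpin under gemcitabine, 0 fell with gemcitabine in shE4F1 cells and 1 interaction was negative. With types VII, XV and XVIII counted as basement membrane, 2 rose with the hairpin under gemcitabine, 2 rose and 1 fell with gemcitabine in shCTRL cells, 2 rose with both changes and 1 interaction was negative. Centring moved all genes by at most 0.07 and added COL4A6 with both changes (adjusted p = 0.0312) and COL5A2 in the interaction (adjusted p = 0.0328). For the derived comparisons, no filter on low values has no separate value.

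No paired analysis was possible because the count columns match no label, so no replicate can be identified; for the same reason no replicate was left out in turn. Depth per library is unknown here. SEs of collagens reached 0.53 with the hairpin in untreated cells (COL14A1, called). COL13A1 and COL9A3 gave 1.01 ± 0.51 and 0.81 ± 0.49 there and were not called.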

Other observations

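The 7-base word AAGTGCT, searched in the annotated 3′ UTRs of GENCODE release 29, lay in 42.2% of 448 genes that fell by at least 1 (log2) with the hairpin both in untreated and in gemcitabine-treated cells, and in 24.3% of 10841 other genes with a mean of at least 50. Among 20 collagens searched, 1 holds it, COL8A1. COL1A1, COL5A2, COL4A1 and COL21A1, which fell with the hairpin in both, do not hold it. The longest annotated 3′ UTRs of the collagens ran from 333 bases (COL7A1) to 4614 (COL4A4). Lengths were not compared between the gene sets, so the shares are not adjusted for them. The word was chosen with earlier results of these data known, and its part in the collagen values was not tested.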
